A study of Mus musculus with 12 samples.

Results

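Livers of mice that ate a MASLD diet and received Aza-TdC at the lower of 2 relative doses (0.1x) were compared with livers of mice fed standard diet (SD), to describe what still set the treated liver apart from a liver on ordinary food. MASLD is metabolic dysfunction-associated steatotic liver disease, in which hepatocytes fill with fat. Aza-TdC is a deoxycytidine analogue that, once built into DNA, traps and depletes DNMT1, the enzyme that copies methylation marks to new DNA strands. The 6 samples of the comparison, 3 per group, were chosen by their labels from a series of 12 liver samples, and every gene that passed an expression filter was used, which was 13866 of the 55471 genes in the table. All samples are C57BL/6 liver measured by RNA-seq. The SD group ate the standard diet with no treatment named, and the 0.1x group ate the MASLD diet with 0.1x Aza-TdC. Another group on the MASLD diet with no treatment named is given beside them where it helps, and the remaining 3 samples had the MASLD diet with 1x Aza-TdC and entered only the shared fit. The labels give no absolute dose, diet composition, duration, age or sex, and they name no standard-diet group that received Aza-TdC, so what the diet did and what the drug did cannot be told apart in this comparison. The labels do not state that the samples of a group are separate animals. The p-values therefore reflect the spread among these samples, part of which may be technical.

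A fatty liver stores triglyceride in droplets coated by perilipins and CIDE proteins, and the incoming fatty acids activate PPARA, a nuclear receptor that switches on their oxidation in peroxisomes and mitochondria. Healthy hepatocytes are divided along the lobule, with urea synthesis and amino acid breakdown near the portal vein and much of drug metabolism near the central vein. In steatotic liver, macrophages that take up lipid, activated stellate cells and a ductular reaction are the hallmarks of progression to inflammation and fibrosis.

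The 6 libraries held 30213048 to 40261526 counts. Levels below are in CPM, read counts scaled to library size and composition, always in the order SD samples 3, 4 and 5, then 0.1x samples 1, 3 and 4, with MASLD samples 3, 4 and 5 where given. A log2 fold change is followed by its standard error (SE), and a gene passed when edgeR's quasi-likelihood test gave it an adjusted p (Benjamini-Hochberg, over all tested genes) under 0.05. Hepatocyte markers summed to 251025 to 255259 CPM in SD and 135087 to 193209 CPM at 0.1x, so the liver label held in both groups. On the first principal component of all 12 libraries (36.5% of variance), SD lay between −59.6 and −50.4, 0.1x between 10.3 and 16.9, and untreated MASLD between 25.3 and 42.2. Counts also trended with GC content and with transcript length, and this trend explained 22.3% of the variance of 0.1x sample 3, 5.28% and 9.74% of the other 0.1x samples, and 0.248 to 5.58% of the SD samples. Named genes that lose their call when this trend is removed are given with that value.

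Of the 13866 genes tested, 2870 (20.7%) differed between 0.1x and SD, with 1372 higher (9.89%) and 1498 lower (10.8%) under the low dose. The count was 1779 without SD sample 4. The rises were the larger changes. At least a 2-fold change was seen in 619 genes that rose and 334 that fell, and at least an 8-fold change in 80 and 25. The 3 samples of each group did not overlap for 1293 of the 1372 higher genes and 1440 of the 1498 lower genes, and over all tested genes the groups did not overlap in 31.9%. The median log2 fold change of all tested genes was 0.02. In the comparison of the untreated MASLD diet with SD, which uses the same SD libraries, 4088 genes passed (29.5%), 2176 higher (15.7%) and 1912 lower (13.8%). That split became 1570 higher and 2873 lower with the GC and length trend removed, and the count was 2674 without MASLD sample 4. Between 0.1x and untreated MASLD, which shares the 0.1x libraries, 1874 genes passed (13.5%), 862 higher (6.22%) and 1012 lower (7.3%). The number fell to 544 (392 higher, 152 lower) with the trend removed, and to 700, 516 and 550 without MASLD samples 3, 4 and 5.

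**Figure D1:**
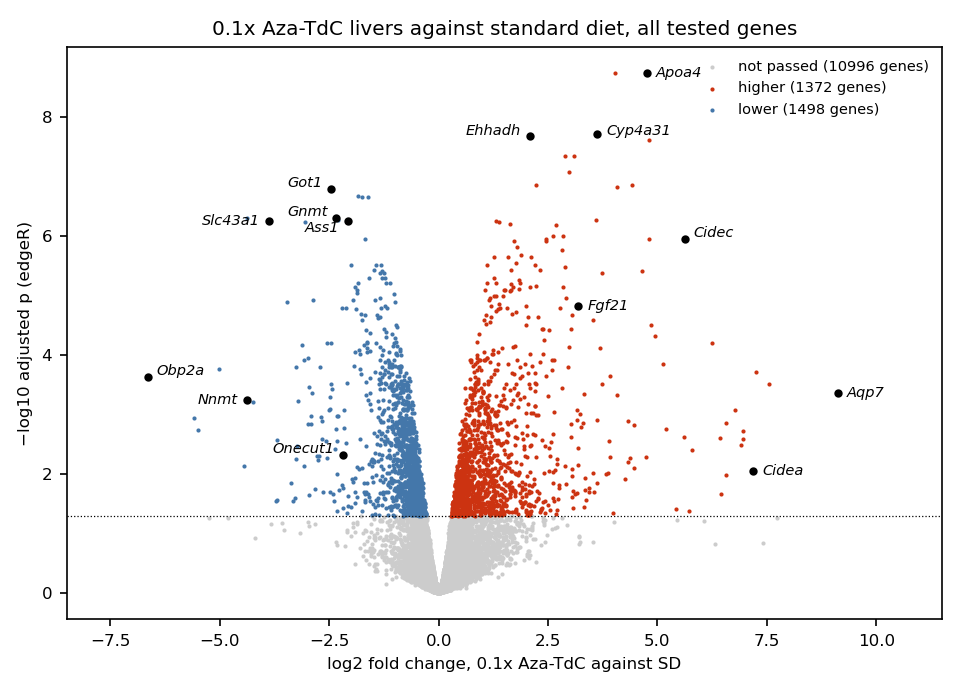
Each point is 1 of the 13866 tested genes, with the log2 fold change of 0.1x Aza-TdC against SD on the x axis and −log10 of the edgeR adjusted p on the y axis. Red marks the 1372 genes higher at 0.1x, blue the 1498 lower, grey the rest, and the dotted line the threshold of 0.05. Labelled genes are named in the text, and the rises reach larger folds than the falls.

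Genes of fat storage that were nearly silent in SD livers rose. Of 33 tested genes of lipid droplets and fatty acid uptake, 18 rose and 1 fell, with a median log2 fold change of 0.85 (19 rose and 1 fell on the untreated MASLD diet). Aqp7, a channel for glycerol, had 0 counts in the 3 SD libraries together and 186 counts at 0.1x, which is at least 62.0-fold higher against a floor of 3 counts over the group. Cidec, which fuses small droplets into large ones, stood at 4.47, 1.87 and 2.53 CPM in SD and 114, 169 and 153 CPM at 0.1x. Its log2 fold change was 5.63 ± 0.35 (adjusted p = 1.1e-06). Every 0.1x sample lay far above every SD sample, and untreated MASLD livers held 248, 236 and 220.2 CPM. Cidea, its close relative, typical of brown fat and of fatty liver, went from 0.205, 0.158 and 0.116 CPM to 15.99, 13.6 and 41.05 CPM (7.19 ± 1.41, adjusted p = 0.00881). Here 0.1x sample 4 was well above the other treated samples, and all 3 were above SD.

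Plin2, Mgll and Cd36 rose from higher levels in SD. Plin2, the main perilipin of hepatocytes, measured 441, 389 and 402 CPM in SD and 895, 914 and 1134 CPM at 0.1x (1.26 ± 0.13, adjusted p = 1.0e-05). Mgll, the lipase for monoacylglycerol, measured 134, 155 and 143 CPM and 354, 378 and 387 CPM (1.37 ± 0.11, adjusted p = 5.7e-07). The groups did not overlap for either gene, and samples within a group were close. Cd36, which takes up long-chain fatty acids, rose from 21.4, 42.05 and 55.2 CPM to 184, 207 and 218 CPM (2.36 ± 0.25, adjusted p = 3.6e-05), so that the lowest treated liver held over 3 times the highest SD liver. Pnpla5, a lipase of the family of the fatty liver gene Pnpla3, had 0.136, 0 and 0.0872 CPM in SD and 4.804, 6.19 and 6.62 CPM at 0.1x (6.25 ± 0.69, adjusted p = 6.2e-05). The member that fell was Slc27a5, the fatty acid transport protein that also activates bile acids, with 1338, 1533 and 1449.6 CPM and 935, 661 and 935 CPM (−0.77 ± 0.15, adjusted p = 0.00187).

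**Figure D2:**
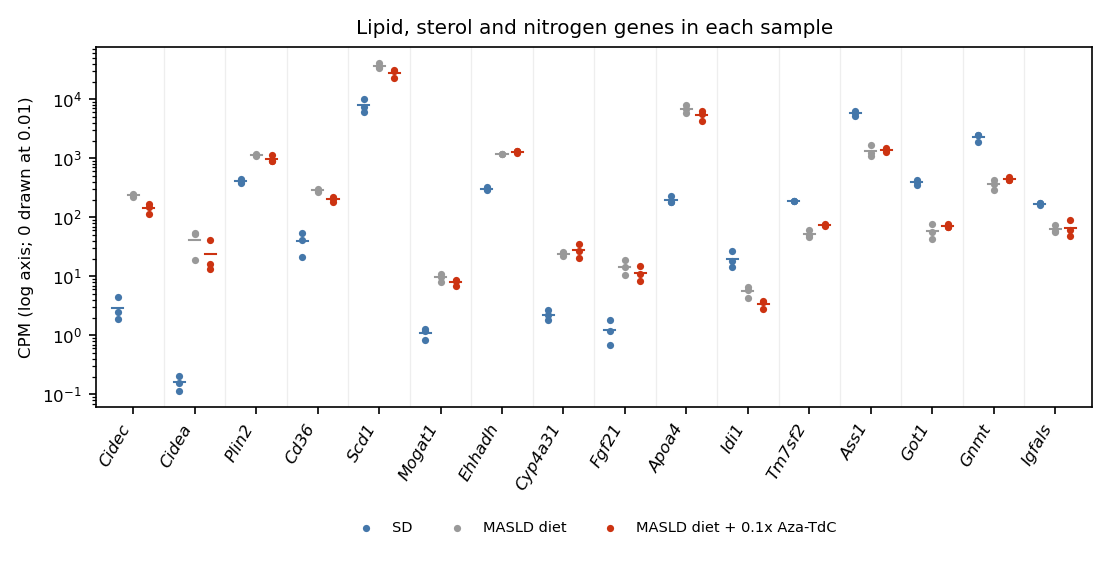
CPM on a log axis for 16 genes of lipid, sterol, nitrogen and growth factor metabolism, with 1 point per sample and a bar at the mean of 3, for SD (blue), the untreated MASLD diet (grey) and the MASLD diet with 0.1x Aza-TdC (red). For each of the 16 genes the red points do not overlap the blue ones: 10 genes from Cidec to Apoa4 are above SD, and 6 from Idi1 to Igfals are below.

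Genes that PPARA controls were the list with the highest share of members raised. Of 43 tested, 27 rose and 1 fell (median log2 fold change 0.75), beside 28 and 0 on the untreated diet. Ehhadh, an enzyme of peroxisomal oxidation, had 295, 297 and 327 CPM in SD and 1314, 1250.2 and 1339 CPM at 0.1x, 2.09 ± 0.12 on the log2 scale (adjusted p = 2.1e-08). Cyp4a31, a fatty acid hydroxylase with near-identical relatives whose reads may be shared, had 2.18, 2.69 and 1.83 CPM and 26.5, 20.5 and 35.9 CPM (3.63 ± 0.20, adjusted p = 1.9e-08). Vnn1, which makes cysteamine and is induced by PPARA, had 33.4, 34.8 and 45.1 CPM and 255, 303 and 282 CPM (2.89 ± 0.18, adjusted p = 4.5e-08). In all 3 genes the 0.1x samples sat above SD by several fold and untreated MASLD livers lay near them, at 1190.1, 1172 and 1185 CPM for Ehhadh. Ppara itself, with 71.6, 77.6 and 54.02 CPM and 43.05, 79.95 and 52.6 CPM, did not pass (−0.21 ± 0.21, adjusted p = 0.521), and its groups overlapped. Against untreated MASLD livers, which held 109, 114 and 136 CPM, the Ppara difference at 0.1x was −1.03 ± 0.21 (adjusted p = 0.0112). With the trend removed its adjusted p was 0.0558. Angptl4, an inhibitor of lipoprotein lipase and also a PPARA target, fell by contrast, from 197, 221 and 262 CPM to 153, 161 and 157 CPM (−0.53 ± 0.12, adjusted p = 0.00504).

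Fgf21, the hormone that the liver releases in fasting and fat overload, was the member of its signalling axis that rose, with 0.682, 1.17 and 1.83 CPM in SD and 8.24, 15 and 10.9 CPM at 0.1x (3.19 ± 0.32, adjusted p = 1.5e-05). The lowest treated sample was over 4 times the highest SD sample. Of the 11 tested genes of the axis, 5 fell. Klb, the co-receptor beta-Klotho, had 30.5, 37.04 and 35.5 CPM and 24.6, 22.3 and 21.3 CPM (−0.59 ± 0.15, adjusted p = 0.00922), and Fgfr4, the main hepatocyte FGF receptor, had 38.1, 46.8 and 45.3 CPM and 22.1, 14.9 and 22.1 CPM (−1.14 ± 0.15, adjusted p = 8.8e-05). Spry4, a feedback inhibitor downstream of FGF receptors, had 9.35, 6.49 and 6.51 CPM and 2.67, 2.34 and 4.16 CPM (−1.29 ± 0.25, adjusted p = 0.002). For these 3 genes each treated sample was below each SD sample. The number of axis genes that fell was 3 without 0.1x sample 3.

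Triglyceride synthesis moved in both directions. Of 31 tested genes of lipogenesis and triglyceride synthesis, 11 rose and 4 fell. Scd1, the desaturase that makes oleate, rose from 10092, 6080.5 and 7507 CPM to 29677, 23308 and 31010.1 CPM (1.83 ± 0.19, adjusted p = 7.6e-06), and Mogat1, an acyltransferase that is low in healthy liver, from 1.19, 0.823 and 1.31 CPM to 6.91, 8.63 and 8.22 CPM (2.83 ± 0.24, adjusted p = 1.0e-06). Both were above SD in all 3 treated samples. Fasn, the fatty acid synthase, had 506, 285 and 278 CPM in SD and 485, 213 and 501 CPM at 0.1x and did not pass (0.16 ± 0.41, adjusted p = 0.817). SD sample 3 was the highest of its group and 0.1x sample 3 the lowest of its own, and the groups overlapped. Srebf1, the transcription factor of this program, passed at 0.58 ± 0.19 (adjusted p = 0.0373), with samples that overlapped, and its adjusted p was 0.116 without SD sample 3, 0.115 without SD sample 5, 0.0748 without 0.1x sample 1 and 0.185 without 0.1x sample 4. Among the falls, Lpin1, a phosphatidate phosphatase, had 596, 358 and 367 CPM and 150.4, 161 and 173 CPM (−1.45 ± 0.29, adjusted p = 0.00446), and Dgat2, which completes triglyceride, had 726, 851 and 776 CPM and 524, 486 and 564 CPM (−0.58 ± 0.11, adjusted p = 0.00184).

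Genes of cholesterol synthesis were mostly lower at 0.1x than in SD where they changed. Of 33 tested genes of sterol synthesis and uptake, 15 fell and 4 rose (2 without SD sample 4), with a median log2 fold change of −0.47, and the untreated MASLD diet had 15 lower and 7 higher. Idi1, the isomerase of isopentenyl diphosphate, had 27.1, 18.4 and 14.6 CPM in SD and 3.69, 3.85 and 2.75 CPM at 0.1x (−2.54 ± 0.30, adjusted p = 6.2e-05). Mvk, mevalonate kinase, had 27.9, 16.8 and 17.4 CPM and 6.88, 8.29 and 7.67 CPM (−1.44 ± 0.18, adjusted p = 6.2e-05). Tm7sf2, a late sterol reductase, had 188, 189 and 186 CPM and 75.6, 72.7 and 76.99 CPM (−1.32 ± 0.12, adjusted p = 3.0e-06). All treated samples were lower than all SD samples for these enzymes, although SD sample 3 was the highest for Idi1 and Mvk. Directly against untreated MASLD, 3 genes of the list were higher at 0.1x and 2 lower. Tm7sf2 was higher there (0.52, adjusted p = 0.0151), and its adjusted p was 0.0617 and 0.0771 without MASLD samples 3 and 4. The sterol exporter Abcg5 rose, from 55.8, 72.2 and 78.2 CPM to 114, 118 and 141 CPM (0.85 ± 0.15, adjusted p = 8.0e-04). Cyp7a1, whose enzyme commits cholesterol to bile acids, did not pass (0.49 ± 0.41, adjusted p = 0.442), with 36.2, 28.1 and 60.1 CPM and 84.6, 52.4 and 37.4 CPM. Of 27 tested bile acid genes, 8 fell and 3 rose. Akr1d1, which reduces the steroid ring of bile acid precursors, had 126, 185 and 169.9 CPM and 64.9, 50.8 and 46.9 CPM (−1.56 ± 0.23, adjusted p = 4.3e-04), while Abcc4, an export pump, rose from 1.91, 1.203 and 1.25 CPM to 7.93, 8.103 and 7.76 CPM (2.45 ± 0.21, adjusted p = 1.1e-06).

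Among 21 tested apolipoprotein and lipoprotein genes, 7 fell and 2 rose. Apoa4, an apolipoprotein of intestine and steatotic liver, had the smallest adjusted p of the named genes, with 179, 229 and 185 CPM in SD and 4216, 5575 and 6415 CPM at 0.1x (4.77 ± 0.22, adjusted p = 1.8e-09). Untreated MASLD livers held 7883, 5836 and 6828 CPM, and against these the 0.1x difference was −0.34 ± 0.19 (adjusted p = 0.228). The other riser, Pltp, a phospholipid transfer protein, had overlapping groups (128, 51.5 and 68.9 CPM and 196, 121 and 200.3 CPM, 1.06 ± 0.32, adjusted p = 0.0367) and missed the threshold when samples were left out, at 0.0865 without SD sample 4, 0.112 without SD sample 5, 0.105 without 0.1x sample 1 and 0.0971 without 0.1x sample 4. Apom, the carrier of sphingosine phosphate, fell from 264, 298 and 269 CPM to 143, 168 and 139 CPM (−0.89 ± 0.13, adjusted p = 1.8e-04).

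Nitrogen metabolism held the most uniform fall. Of 44 tested genes of the urea cycle and amino acid breakdown, 36 fell and 0 rose, with a median log2 fold change of −0.85, beside 37 lower and 1 higher on the untreated diet. Their summed level was 38699 to 42626 CPM in SD and 18873 to 20570.0 CPM at 0.1x. Ass1, the urea cycle enzyme that joins citrulline and aspartate, had 5291, 6261 and 5917 CPM and 1372, 1285 and 1504 CPM (−2.07 ± 0.16, adjusted p = 5.6e-07). Got1, the cytosolic aspartate aminotransferase, had 425, 355 and 399 CPM and 70.01, 67.5 and 76.4 CPM (−2.46 ± 0.17, adjusted p = 1.6e-07). Gnmt, which consumes the methyl donor S-adenosylmethionine, had 1882, 2455 and 2476 CPM and 430.1, 484 and 437 CPM (−2.33 ± 0.18, adjusted p = 5.0e-07). Treated samples lay within a narrow band for each of these genes, at well under the lowest SD sample. Cth, of the transsulfuration pathway, fell by 1.76 on the log2 scale against SD (adjusted p = 2.2e-07) and stood above untreated MASLD livers (141, 153 and 123.3 against 96.1, 94.02 and 106 CPM, 0.49 ± 0.12, adjusted p = 0.019). That second difference was 0.27 (adjusted p = 0.157) once the trend was removed, and its adjusted p was 0.0721 and 0.0798 without MASLD samples 3 and 4. Nnmt, the nicotinamide methyltransferase, showed 1 of the largest falls of all genes, from 129, 179.9 and 212 CPM to 6.88, 6.19 and 11.9 CPM (−4.39 ± 0.53, adjusted p = 5.7e-04). Slc43a1, a carrier of branched-chain and aromatic amino acids, fell from 13.6, 11.7 and 15.1 CPM to 0.651, 1.05 and 1.05 CPM (−3.88 ± 0.30, adjusted p = 5.5e-07).

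Zonation genes fell at both ends of the lobule. Of 24 tested periportal genes 17 fell and 0 rose, and of 26 pericentral genes 12 fell and 1 rose (0 without SD sample 3, SD sample 4 or 0.1x sample 4). Without SD sample 3 or 0.1x sample 4, 1 periportal gene rose. Gls2, periportal glutaminase, had 430.2, 517 and 502 CPM and 137, 124 and 146 CPM (−1.83 ± 0.18, adjusted p = 6.0e-06), and the periportal list includes urea cycle genes also counted above. Oat, the pericentral ornithine aminotransferase, had 785, 1187 and 1583 CPM and 338, 289 and 336 CPM (−1.88 ± 0.21, adjusted p = 1.7e-05), and Cyp1a2, a pericentral P450, had 1112, 1117 and 1098 CPM and 426, 219 and 370.2 CPM (−1.71 ± 0.21, adjusted p = 6.7e-05). None of the treated samples reached the SD range in these genes. Of 64 tested P450 and drug metabolism genes 23 fell and 5 rose (3 without SD sample 5, 0.1x sample 1 or 0.1x sample 4). Cyp2a4, which shares sequence with close relatives, rose from 0.409, 1.298 and 3.402 CPM to 44.04, 188 and 267 CPM (6.57 ± 0.89, adjusted p = 0.00137), with wide spread among the treated samples.

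Glucose and insulin genes were lower as well. Of 30 tested, 17 fell and 0 rose, with 13 lower and 2 higher on the untreated diet. The number that fell was 11, 10, 11 and 9 without SD sample 3, SD sample 4, 0.1x sample 1 and 0.1x sample 3. Slc37a4, the glucose-6-phosphate translocase, had 258, 318 and 299.7 CPM and 165, 183 and 179.8 CPM (−0.73 ± 0.11, adjusted p = 3.4e-04). Ppp1r3b, which targets a phosphatase to glycogen, had 136, 160.0 and 131 CPM and 90.3, 66.7 and 70.5 CPM (−0.91 ± 0.15, adjusted p = 5.3e-04). Both were lower in every treated sample. Of the growth hormone axis, 7 of 18 tested genes fell and 0 rose (1 without SD sample 3). Igf1, its circulating effector, had 510.3, 419 and 427 CPM and 325, 225 and 219 CPM (−0.82 ± 0.16, adjusted p = 0.00193). Igfals, which holds IGF1 in plasma, had 172, 163 and 176 CPM and 89.3, 48.6 and 62.1 CPM (−1.36 ± 0.20, adjusted p = 3.1e-04), and Prlr, the prolactin receptor, had 65.7, 103 and 101 CPM and 33.6, 20.6 and 37.2 CPM (−1.56 ± 0.20, adjusted p = 8.5e-05). For these the SD and 0.1x samples did not overlap.

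Genes that differ between male and female liver, many of them set by growth hormone pulses, varied strongly among the SD samples. Of 38 tested male-biased genes 9 fell and 0 rose, 23.7% called, a share near the 20.7% of all tested genes. With the GC and length trend removed, 13 fell and 0 rose. Without SD sample 3, 5 fell and 10 rose, without 0.1x sample 3, 5 fell and 1 rose, and without 0.1x sample 4, 2 rose. Obp2a, a lipocalin of male liver, had 323 counts in the 3 SD libraries and 3 at 0.1x, a ratio of 108 with a 95% counting interval of 36.5 to 525. Mup6 and Mup9, members of the major urinary protein family that cannot be separated cleanly from their copies, rose. Neither is in the male-biased list, which holds other members of that family. Mup6 had 0.5799, 0.127 and 0.262 CPM and 10.3, 8.44 and 5.34 CPM (4.65 ± 0.43, adjusted p = 3.9e-06), and Mup9 had 9.18, 2.03 and 1.75 CPM and 198, 55.7 and 86.6 CPM (4.73 ± 0.83, adjusted p = 0.00515). Both genes were named by a rule that required each SD sample to be below each 0.1x sample, so their separation is no added result. SD sample 3 was the highest of its group for both. Serpina1e, which is also part of a family of near copies, had 17147, 3343 and 5539 CPM in SD and 1500.4, 145 and 376 CPM at 0.1x (−3.69 ± 0.95, adjusted p = 0.0272), and its adjusted p was 0.0665 without SD sample 3, 0.0522 without 0.1x sample 3 and 0.0805 without 0.1x sample 4. Of 27 tested female-biased genes 7 rose and 2 fell, and 4 rose without 0.1x sample 3 or 0.1x sample 4.

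Secreted proteins and transcription factors that define the hepatocyte were lower. Of 31 tested hepatocyte markers, 21 fell and 0 rose (median log2 fold change −0.59), and 24 fell on the untreated diet. Fewer hepatocytes in the tissue and less RNA per hepatocyte cannot be told apart in bulk samples. Ahsg, fetuin-A, had 10673, 9833 and 10242 CPM and 5079.5, 3436 and 5424 CPM (−1.14 ± 0.16, adjusted p = 1.3e-04). Alb, serum albumin, had 111964, 126258 and 124196 CPM and 84646, 58638 and 97454 CPM (−0.59 ± 0.19, adjusted p = 0.0342), and its adjusted p was 0.112 without SD sample 4, 0.0842 without SD sample 5, 0.0618 without 0.1x sample 1 and 0.0762 without 0.1x sample 3. Treated sample 3 was the lowest in both genes. Hnf4a, the master regulator of hepatocyte identity, fell from 797 ± 72.3 CPM to 418 ± 34.99 CPM (mean ± SD, n = 3, −0.93 ± 0.14, adjusted p = 3.1e-04), and Foxa3, a pioneer factor, from 56.2, 66.96 and 70.5 CPM to 30.5, 24.03 and 24.8 CPM (−1.29 ± 0.13, adjusted p = 5.1e-06). Of 44 complement and coagulation genes 28 fell and 6 rose. Among the falls, F7, which starts the extrinsic clotting pathway, had 119.5, 129 and 124 CPM and 52.7, 45.6 and 62.9 CPM (−1.21 ± 0.12, adjusted p = 6.1e-06). The risers included C1qa, C1qb and C1qc (adjusted p = 0.0617 with the trend removed for C1qc), named after their values were seen, which macrophages make, and Cfp, properdin, with 13.03, 11.1 and 11.7 CPM and 28.9, 23.9 and 26.5 CPM (1.15 ± 0.19, adjusted p = 4.6e-04). Of 33 acute phase genes 16 fell and 2 rose, and 10 fell without 0.1x sample 3 and 0 rose without SD sample 4.

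Markers of resident macrophages were higher in treated livers than in SD. Of 28 tested Kupffer cell markers 14 rose and 0 fell (median log2 fold change 0.93), with 13 and 0 on the untreated diet. The number was 6 without SD sample 4 and 9 without 0.1x sample 1, and 1 fell without SD sample 3. The whole list summed to 743 to 1117 CPM in SD and 1148 to 1373 CPM at 0.1x. Clec4f, a lectin specific to Kupffer cells, had 47.1, 32.9 and 33.8 CPM and 87, 76.7 and 74.4 CPM (1.07 ± 0.26, adjusted p = 0.0124), and 85.9, 61.2 and 63.4 CPM in untreated MASLD, and its adjusted p was 0.0533 without SD sample 4 and 0.0515 without 0.1x sample 3. Cd5l, a secreted macrophage protein, had 52.7, 39.8 and 35.1 CPM and 105, 95.8 and 91.96 CPM (1.20 ± 0.22, adjusted p = 0.00201). Clec1b, a lectin receptor of Kupffer and endothelial cells, had 6.62, 5.699 and 5.38 CPM and 14.8, 12.02 and 11.2 CPM (1.11 ± 0.18, adjusted p = 5.1e-04). All treated samples exceeded all SD samples for these 3 genes. Adgre1, which encodes F4/80, did not pass (6.69, 4.81 and 3.46 CPM and 7.07, 8.07 and 7.93 CPM, 0.63 ± 0.27, adjusted p = 0.119) except without SD sample 3 (adjusted p = 0.0395), and lay below the untreated MASLD livers (16.2, 15.8 and 11.7 CPM, −0.92 ± 0.26, adjusted p = 0.0343). That second call was lost with the trend removed (adjusted p = 0.0786) and when any 1 sample of the 2 groups was left out (adjusted p from 0.0503 to 0.111).

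Genes of lipid-associated macrophages also rose, 14 of 28 tested with 2 lower (median log2 fold change 1.18), and 20 rose on the untreated diet. Several members of the list are expressed by hepatocytes too, Plin2, Cd36 and Lpl among them. Cd9, a tetraspanin of these cells, had 19.6, 21.1 and 20.4 CPM and 46.7, 43.4 and 40.03 CPM (1.09 ± 0.13, adjusted p = 3.0e-05). Trem2, the lipid receptor that defines them, had 0.512, 0.412 and 0.145 CPM and 0.651, 0.863 and 2.03 CPM (1.74 ± 0.58, adjusted p = 0.0441), and its adjusted p was 0.0995 without SD sample 4, 0.148 without SD sample 5, 0.058 without 0.1x sample 3 and 0.212 without 0.1x sample 4. Gpnmb, a glycoprotein of lipid-laden macrophages, had 0.102, 0.127 and 0.145 CPM in SD and a wide spread of 0.09298, 0.863 and 2.62 CPM at 0.1x, and did not pass (3.20 ± 1.42, adjusted p = 0.152), although DESeq2 gave an adjusted p of 0.0214. For both genes 0.1x sample 4 was the highest of the treated livers. Untreated MASLD livers held 4.09, 12 and 2.49 CPM of Gpnmb. Of 27 tested monocyte markers 9 rose and 1 fell (5 rose without SD sample 4 or 0.1x sample 1), with S100a11 going from 5.799, 2.63 and 5.26 CPM to 23.03, 24.4 and 30.1 CPM (2.50 ± 0.34, adjusted p = 4.8e-04). Ccl2, the monocyte chemokine, did not pass (0.0341, 0.158 and 0.262 CPM and 0.589, 0.123 and 0.426 CPM, 1.27 ± 0.71, adjusted p = 0.226).

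**Figure D3:**
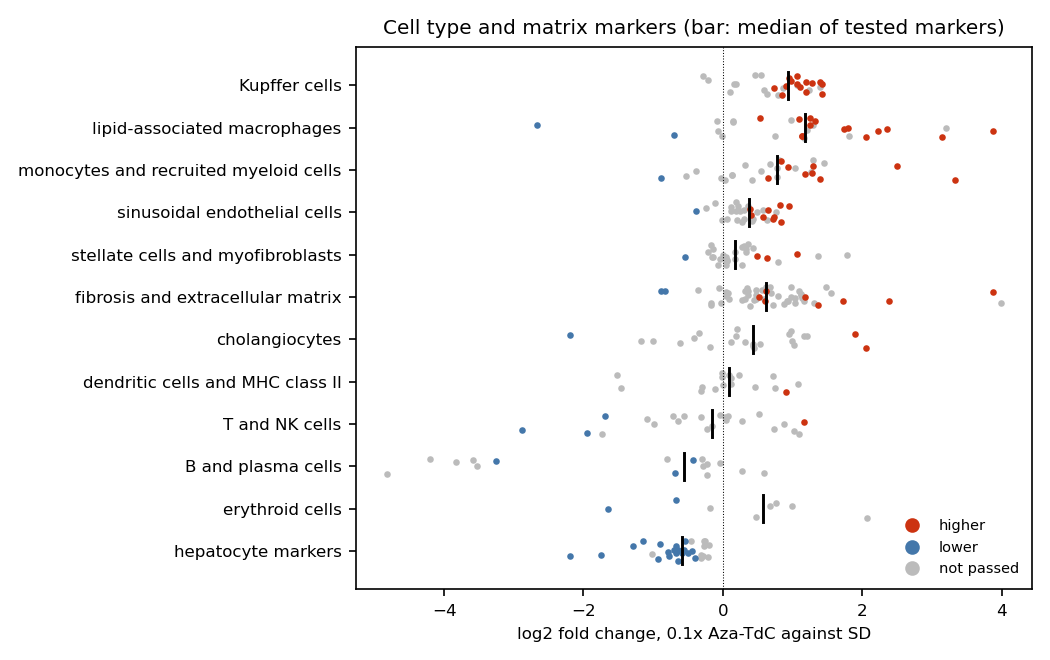
Log2 fold changes of 0.1x Aza-TdC against SD (x axis) for tested markers of cell types and of matrix, 1 point per gene, with lists on the y axis. Red passed as higher, blue as lower, grey did not pass, and the black bar is the median, which is 0.93 for Kupffer cells, 0.62 for matrix and −0.59 for hepatocytes.

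Of 53 tested genes of fibrosis and matrix 8 rose and 2 fell at 0.1x, 18.9% called beside 20.7% of all tested genes, with a median log2 fold change of 0.62, and the number that rose was 13 without SD sample 3, 4 without SD sample 4 and 4 without 0.1x sample 4. On the untreated diet 30 rose and 0 fell. Directly against untreated MASLD, 0 of the 53 were higher at 0.1x and 5 lower, with a median log2 fold change of −0.56. In that comparison 13.5% of all tested genes passed. A count that passes in 1 comparison and not in the other does not show that the groups differ, so the difference from untreated MASLD is given for each gene below. Postn, periostin, had 4.196, 5.35 and 5.09 CPM and 10.6, 10.9 and 11.6 CPM (1.18 ± 0.14, adjusted p = 2.8e-05), and Col12a1, a fibril-associated collagen, 0.5799, 1.04 and 0.9304 CPM and 2.94, 2.62 and 2.98 CPM (1.73 ± 0.25, adjusted p = 2.1e-04). Both were higher than SD in each treated sample. Against untreated MASLD neither passed, at −0.14 ± 0.13 (adjusted p = 0.49) for Postn and −0.56 ± 0.23 (adjusted p = 0.105) for Col12a1. Mmp12, macrophage elastase, rose to 0.806, 1.57 and 1.93 CPM from 0.0682, 0.0317 and 0.174 CPM (3.88 ± 0.75, adjusted p = 0.0028). Untreated MASLD livers held 4.86, 8.49 and 2.97 CPM of Mmp12, and the 0.1x difference from them was −1.92 ± 0.50 (adjusted p = 0.025). That adjusted p was 0.0712 with the trend removed, 0.0568 and 0.105 without MASLD samples 3 and 4, and 0.0734 and 0.078 without 0.1x samples 1 and 3. Col1a1, the main fibrillar collagen, had 3.62, 0.918 and 2.79 CPM and 3.66, 1.57 and 16.4 CPM, with 0.1x sample 4 far above the rest, and did not pass (1.56 ± 0.99, adjusted p = 0.315). Nor did Timp1, an inhibitor of matrix proteases (0.136, 0.0633 and 0.145 CPM and 0.341, 0.216 and 0.426 CPM, 1.47 ± 0.78, adjusted p = 0.202), or Acta2, the smooth muscle actin of myofibroblasts (4.13, 0.253 and 2.18 CPM and 0.837, 0.585 and 4.39 CPM, −0.18 ± 0.98, adjusted p = 0.925). Against untreated MASLD, Timp1 differed by −1.96 ± 0.62 (adjusted p = 0.0463), a call lost when any 1 sample of the 2 groups was left out (adjusted p from 0.0509 to 0.303, with a difference of −1.10 without MASLD sample 4). The Col1a1 and Acta2 differences from untreated MASLD did not pass, at −0.84 ± 0.91 (adjusted p = 0.576) and −0.50 ± 0.96 (adjusted p = 0.765). Fn1, fibronectin, which hepatocytes also make, fell from 1516, 1492 and 1168 CPM to 908, 440.2 and 912 CPM (−0.89 ± 0.21, adjusted p = 0.00872), and its difference from untreated MASLD did not pass at −0.36 ± 0.21 (adjusted p = 0.266).

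Of 29 tested stellate markers 3 rose and 1 fell, 13.8% called, below the 20.7% of all tested genes. The marker that fell was Gas1, whose adjusted p was 0.0779 without SD sample 3, 0.139 without SD sample 4, 0.0721 without 0.1x sample 1 and 0.112 without 0.1x sample 3. Rgs5, a pericyte regulator, rose from 19.6, 25.1 and 23.4 CPM to 52.3, 57.03 and 33.1 CPM (1.07 ± 0.18, adjusted p = 6.5e-04). Of 32 sinusoidal endothelial markers 9 rose and 1 fell, Gata4, whose adjusted p was 0.0824 without SD sample 3, 0.0719 without SD sample 4, 0.123 without SD sample 5, 0.14 without 0.1x sample 3 and 0.0674 without 0.1x sample 4. The number that rose ran from 4 (without SD sample 4, SD sample 5 or 0.1x sample 4) to 14 (without 0.1x sample 3), with 5 without 0.1x sample 1. Mrc1, the mannose receptor, had 13.7, 11.4 and 12.1 CPM and 25.5, 22.1 and 18.5 CPM (0.83 ± 0.14, adjusted p = 6.4e-04). Of 23 cholangiocyte markers 2 rose, each losing its call when single samples were left out, with 0 higher without SD sample 3 or SD sample 4. The marker that fell, Onecut1, is also a hepatocyte factor and is described below. The share of cholangiocyte markers called, 13%, was below the 20.7% of all tested genes. On the untreated diet 13 of the 23 rose. Directly against untreated MASLD, 0 of them were higher at 0.1x and 4 lower, beside 13.5% of all tested genes called in that comparison. Zap70, a T cell kinase, fell from 11.2, 10.8 and 16.8 CPM to 1.98, 1.66 and 1.64 CPM (−2.88 ± 0.30, adjusted p = 1.2e-05). Of 23 tested T and NK cell genes 3 fell and 1 rose, 17.4% called, which is under the share of all tested genes, with a median log2 fold change of −0.16. The number that fell was 2 without SD sample 3, SD sample 5, 0.1x sample 3 or 0.1x sample 4. The riser was Klrk1, an activating receptor of NK cells (1.16 ± 0.40, adjusted p = 0.0486), whose adjusted p was 0.143 without SD sample 3, 0.144 without SD sample 4, 0.115 without 0.1x sample 1 and 0.107 without 0.1x sample 3. Its adjusted p was 0.0746 with the GC and length trend removed, where 0 genes of the list rose. Of 16 tested B and plasma cell genes 3 fell and 0 rose, 18.8% called, a share near that of all tested genes. The number that fell was 5 without SD sample 3 and 7 without SD sample 4. Igha, the immunoglobulin A chain, fell from 8.43, 1.65 and 9.68 CPM to 0.3099, 1.36 and 0.393 CPM (−3.25 ± 0.67, adjusted p = 0.00566). Treated samples were below SD samples in Zap70 and Igha, although Igha in SD sample 4 was close to 0.1x sample 3.

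Stress and damage genes were led by the NRF2 response to oxidants, with 19 of 47 tested genes higher and 3 lower. The number that rose was 10 without SD sample 4 and 11 without 0.1x sample 4, and the number that fell was 5 without SD sample 3. Of the same genes 22 were higher and 7 lower than SD on the untreated MASLD diet. Srxn1, sulfiredoxin, had 30.3, 25.3 and 26.9 CPM and 69.5, 99.4 and 76.4 CPM (1.57 ± 0.14, adjusted p = 2.2e-06). Of 41 p53 targets 9 rose and 1 fell, 24.4% called, a share near the 20.7% of all tested genes. The number that fell was 3, 2 and 3 without SD sample 3, 0.1x sample 3 and 0.1x sample 4. The untreated diet had 15 p53 targets higher than SD and 0 lower. Bax, which permeabilises mitochondria, had 8.63, 8.58 and 10.1 CPM and 14.3, 17.8 and 13.8 CPM (0.75 ± 0.15, adjusted p = 0.00256), and Gadd45a, a DNA damage sensor, had 3.99, 2.31 and 3.29 CPM and 4.87, 8.35 and 6.65 CPM (1.05 ± 0.24, adjusted p = 0.00598). The treated samples lay above SD in all 3 genes. Cdkn1a, which encodes the cell cycle inhibitor p21, missed the threshold (4.13, 2.44 and 4.33 CPM and 7.13, 9.304 and 6.98 CPM, 1.10 ± 0.36, adjusted p = 0.0517) and passed with DESeq2 (adjusted p = 0.00379). The unfolded protein and integrated stress list was split, with 6 of 38 higher and 7 lower. With the GC and length trend removed, 6 were higher and 14 lower at 0.1x. The untreated diet had 10 higher and 11 lower than SD with that trend left in. Psat1, of serine synthesis, rose from 0.887, 0.475 and 0.756 CPM to 5.02, 16.2 and 7.11 CPM (3.74 ± 0.49, adjusted p = 3.1e-04), and Herpud1, of degradation at the endoplasmic reticulum, fell from 763, 863 and 787 CPM to 490.4, 474 and 526 CPM (−0.69 ± 0.14, adjusted p = 0.002).

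Of 50 tested cell cycle genes 8 rose and 2 fell, a share near the 20.7% of all tested genes called, with 25 higher and 2 lower on the untreated diet. The number that rose was 4 without SD sample 4 and 5 without 0.1x sample 1 or 0.1x sample 3. Directly against untreated MASLD, 1 of the 50 was higher at 0.1x and 5 lower, beside 13.5% of all tested genes called in that comparison. Ccnd1, cyclin D1, had 11.1, 14.7 and 13.3 CPM and 58.1, 48.5 and 54.97 CPM (2.05 ± 0.22, adjusted p = 2.3e-05), and Cdk1, the mitotic kinase, 1.16, 1.24 and 1.599 CPM and 4.18, 3.63 and 2.42 CPM (1.35 ± 0.26, adjusted p = 0.00182). No treated sample fell into the SD range for either. Interferon-stimulated genes were 11 higher and 3 lower of 66 tested, or 21.2%, again a share near that of all tested genes. The number that rose was 3 and 5 without SD samples 4 and 5 and 7 without 0.1x sample 1 or 0.1x sample 4, and 1 fell without SD sample 4. Ifi27l2a had 1.77, 1.55 and 3.37 CPM and 6.23, 8.87 and 9.34 CPM (1.86 ± 0.28, adjusted p = 2.4e-04), and Parp9, a ribosyltransferase of antiviral signalling, 36.1, 27.1 and 27.7 CPM and 55.1, 49.1 and 47.9 CPM (0.74 ± 0.13, adjusted p = 7.5e-04). Lcn2, lipocalin 2, a marker of liver injury, did not differ detectably from SD (4.37, 4.24 and 14.3 CPM and 6.32, 7.09 and 9.50 CPM, −0.01 ± 0.54, adjusted p = 0.993), and lay below the untreated diet (34.2, 42.2 and 24.4 CPM, −2.14 ± 0.54, adjusted p = 0.0344). That second call was lost with the trend removed (adjusted p = 0.0523) and when any 1 sample of the 2 groups was left out (adjusted p from 0.0586 to 0.106).

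Hormone, clock and metal genes were mostly lower where they changed. Of 19 tested glucocorticoid-responsive genes 10 fell and 1 rose, Fgf21. Tsc22d3, the classic target GILZ, had 63.1, 106 and 76.8 CPM and 40.6, 37.2 and 33.5 CPM (−1.14 ± 0.17, adjusted p = 2.3e-04), and Per1, also a clock gene, 33.02, 40.7 and 33.6 CPM and 19.7, 15.99 and 21.8 CPM (−0.90 ± 0.13, adjusted p = 2.2e-04). Of 25 clock genes 7 fell and 1 rose, and 4 fell without SD sample 4. The time of day at sampling is not given in the labels, so its part in these values was not tested. Of 29 iron and zinc genes 12 fell and 3 rose. Mt2, a metallothionein, fell from 34.7, 41.5 and 80.1 CPM to 6.01, 6.25 and 8.81 CPM (−2.89 ± 0.37, adjusted p = 4.4e-04), and Slc39a5, a zinc importer, rose from 0.239, 1.24 and 1.72 CPM to 7.13, 15 and 8.58 CPM (3.24 ± 0.49, adjusted p = 9.7e-04). For each gene the groups were apart, with SD sample 5 the highest SD sample for both.

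Energy and translation machinery showed few calls against SD. Of 77 nuclear genes of oxidative phosphorylation 2 rose and 1 fell, and of 76 cytosolic ribosomal protein genes 4 fell, shares below the background of 20.7%. The ribosomal count was 7 without SD sample 3 and 1 without SD sample 4, SD sample 5 or 0.1x sample 1, and of the oxidative phosphorylation genes 1, 0, 0 and 4 rose without SD sample 3, SD sample 4, 0.1x sample 3 and 0.1x sample 4. Their median log2 fold changes were 0.02 and −0.11. On the untreated diet 43 of the former and 68 of the latter fell, with the GC and length trend left in. Directly against untreated MASLD under that setting, 39 and 46 were higher at 0.1x and 0 lower. In that comparison 13.5% of all tested genes passed. With the GC and length trend removed, 0 oxidative phosphorylation genes rose and 8 fell at 0.1x. Under the same setting 26 ribosomal protein genes fell, so both counts move with that trend. None of the 13 genes encoded in mitochondria passed.

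**Figure D4:**
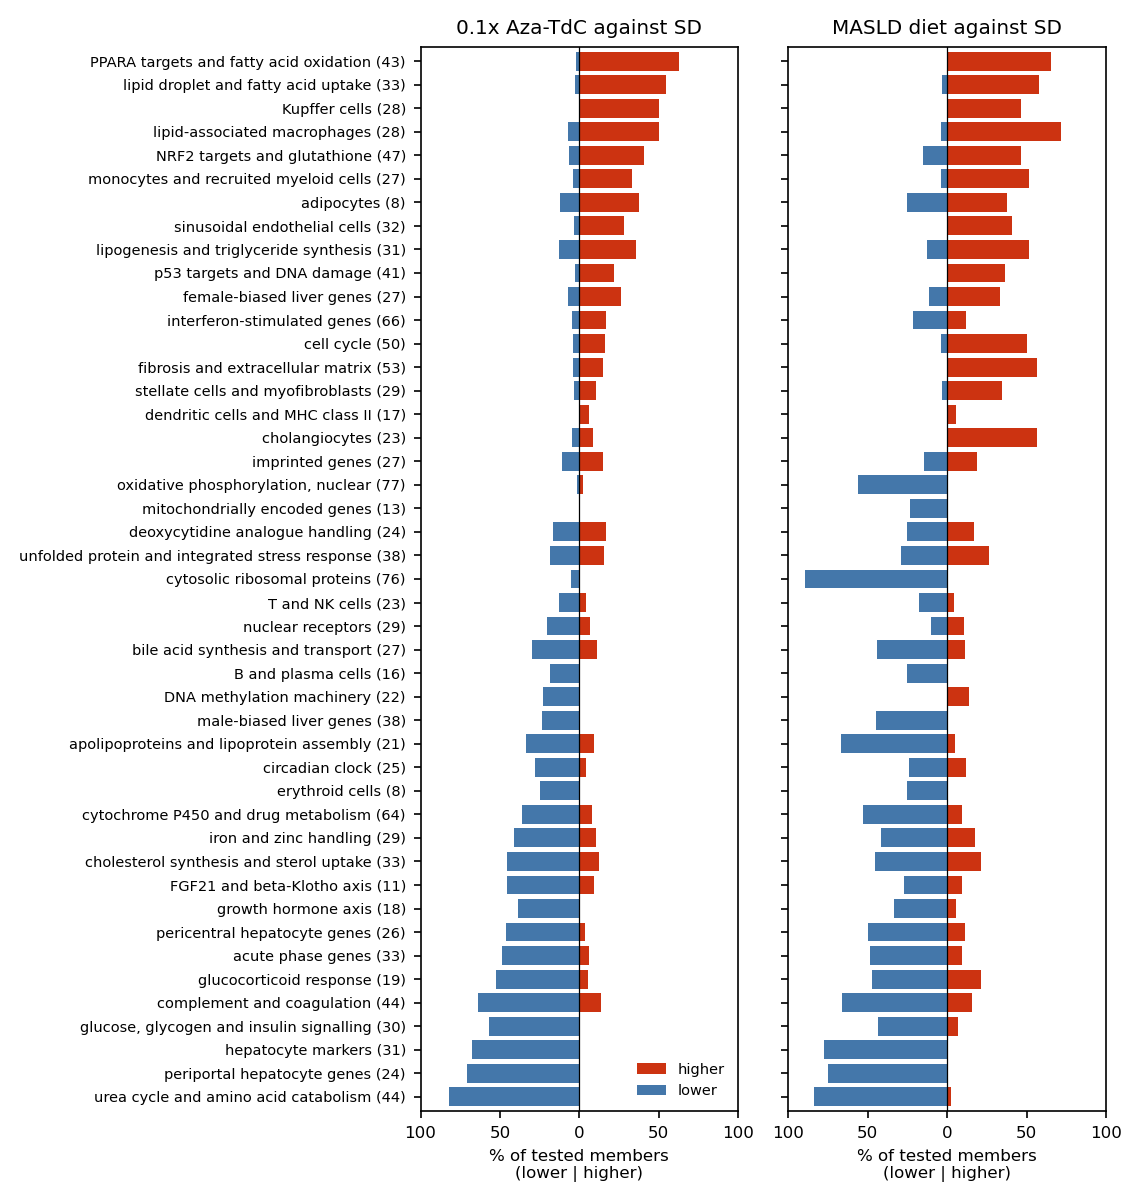
Share of the tested members of each list (number in brackets, lists of 8 or more) that passed as higher (red, to the right) or lower (blue, to the left), for 0.1x Aza-TdC against SD and for the untreated MASLD diet against SD. Both panels use the same SD libraries. At 0.1x the bars run from 27 of 43 PPARA targets higher at the top to 36 of 44 urea cycle and amino acid genes lower at the bottom.

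The target of the drug did not differ detectably from SD in its mRNA. Dnmt1 had 6.004, 7.31 and 5.96 CPM in SD and 6.199, 5.299 and 6.68 CPM at 0.1x, with overlapping groups (−0.08 ± 0.17, adjusted p = 0.767). Against untreated MASLD livers (8.78, 8.82 and 9.75 CPM) its difference was −0.59 ± 0.17 (adjusted p = 0.0324), which became −0.20 (adjusted p = 0.53) with the trend removed, and whose adjusted p was 0.0645 to 0.108 without each of MASLD samples 3, 4 and 5 and 0.1x samples 1 and 3. Depletion of the protein by Aza-TdC would not be measured by RNA-seq. Dnmt3a, a de novo methyltransferase, and Uhrf1, which guides DNMT1 to new strands, did not pass either (−0.37 ± 0.18, adjusted p = 0.156, and 0.14 ± 0.63, adjusted p = 0.902). Of 22 tested genes of the methylation machinery 5 fell and 0 rose, a share near the background for any call. Dnmt3b, Tet3 and Mbd1 were among those that fell, and the number was 1, 2, 3, 2 and 3 without SD sample 3, SD sample 4, SD sample 5, 0.1x sample 1 and 0.1x sample 4. Dnmt3b had 0.955, 0.443 and 0.145 CPM and 0.124, 0.0924 and 0.0655 CPM (−2.39 ± 0.73, adjusted p = 0.0288), and its adjusted p was 0.166 without SD sample 3, 0.0587 without SD sample 4, 0.0548 without 0.1x sample 1, 0.0628 without 0.1x sample 3 and 0.0824 without 0.1x sample 4.

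Germline genes, which DNA methylation keeps silent in somatic cells, were mostly without counts in both groups. Of 40 germline genes 28 had no count in any of the 6 libraries, and 2 passed the expression filter, neither of them called. The list totalled 270 counts in SD and 309 at 0.1x, of which the most abundant member in each group held 117 and 179. Of 27 tested imprinted genes 4 rose (Peg3, Peg10, Impact and, named after its value was seen, Sgce) and 3 fell. That is 25.9% called, a share near the 20.7% of all tested genes. Peg3, expressed from the paternal allele, had 0.444, 0.412 and 0.291 CPM and 1.33, 1.202 and 1.47 CPM (1.80 ± 0.31, adjusted p = 7.5e-04), and untreated MASLD livers held 1.86, 2.49 and 2.702 CPM (2.62 ± 0.30 against SD, adjusted p = 1.2e-05). Impact, a regulator of the kinase GCN2, had 3.34, 4.72 and 4.07 CPM and 10.8, 12.3 and 8.09 CPM (1.36 ± 0.18, adjusted p = 8.8e-05), with 12.5, 12.8 and 10.6 CPM on the untreated diet. For these the treated and untreated MASLD livers were both above SD. Of 24 tested genes of deoxycytidine analogue handling and related nucleoside metabolism 4 rose and 4 fell. That is 33.3% called, beside 20.7% of all tested genes. The number that rose was 2 without SD sample 3, SD sample 4 or 0.1x sample 4. Slc29a1, the nucleoside transporter ENT1, fell from 237, 246 and 267 CPM to 132, 105 and 136 CPM (−1.005 ± 0.13, adjusted p = 5.1e-05). Tk1, cytosolic thymidine kinase, had 22.8, 31.6 and 37.2 CPM in SD, 15.4, 20.1 and 16.3 CPM at 0.1x and 9.12, 8.51 and 9.25 CPM on the untreated diet. It was below SD (−0.82 ± 0.17, adjusted p = 0.0026) and above untreated MASLD (0.95 ± 0.17, adjusted p = 0.00643), with no overlap between the 3 groups.

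Some genes departed from SD without following the diet. The 12 genes with the smallest adjusted p against untreated MASLD, among those that also differed from SD, included 9 that lay below both groups of untreated livers. Steap4, a metalloreductase, had 111, 111 and 107 CPM in SD, 124, 116 and 124 CPM in untreated MASLD and 51.5, 51.6 and 66.2 CPM at 0.1x. Its difference was −0.96 ± 0.15 from SD (adjusted p = 4.7e-04) and −1.11 ± 0.16 from untreated MASLD (adjusted p = 0.00211). All 3 treated livers were below all 6 untreated ones. Spen, a large transcriptional repressor that acts in X inactivation and Notch signalling, had 12.6, 14.7 and 11.3 CPM, 13.6, 14.5 and 15.2 CPM and 6.38, 5.51 and 7.37 CPM in the same order of groups (−1.001 ± 0.17 from SD, adjusted p = 6.4e-04, and −1.17 ± 0.17 from untreated MASLD, adjusted p = 0.00211). Bptf, a subunit of the NURF chromatin remodeller, had 14.1, 13.6 and 12.8 CPM, 15.4, 17 and 15.02 CPM and 8.399, 6.22 and 7.63 CPM (−0.86 ± 0.14, adjusted p = 5.1e-04, and −1.09 ± 0.14, adjusted p = 0.0018). Again the treated samples were apart from all 6 others. With the trend removed, the difference from untreated MASLD still passed but shrank, to −0.57 for Spen, −0.58 for Bptf and −0.72 for Zfp609, and, of the genes below, to −0.55 for Shroom2 and Vps13c and 0.45 for Pdcd5. Zfp609, a zinc finger protein, differed from SD by −0.81 ± 0.17 (adjusted p = 0.00292), Gprin3 by −0.94 ± 0.17 (adjusted p = 0.00134), and Spata13, an exchange factor for small GTPases, by −0.94 ± 0.12 (adjusted p = 6.9e-05). Shroom2, a regulator of cell shape, was below both groups (−0.57 ± 0.14 from SD, adjusted p = 0.00837). Spata13 and Arhgap21 lost their calls against untreated MASLD with the trend removed (adjusted p = 0.0548 and 0.0747). Arhgap21 and Vps13c lost theirs against SD with the trend removed (adjusted p = 0.113 and 0.0709) and when single samples were left out, at 0.129 without SD sample 4 and 0.0965 without 0.1x sample 1 for Arhgap21 and 0.17 without SD sample 4, 0.0848 without 0.1x sample 1 and 0.0568 without 0.1x sample 4 for Vps13c.

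The other 3 of these 12 lay above or between the untreated groups. Pdcd5 rose above both, with 28.5, 29.6 and 32.7 CPM in SD, 23.9, 21.8 and 22.6 CPM in untreated MASLD and 44.1, 42.1 and 37.5 CPM at 0.1x (0.45 ± 0.12 from SD, adjusted p = 0.0166), and its adjusted p against SD was 0.0573 without SD sample 3, 0.0613 without SD sample 4 and 0.0631 without 0.1x sample 1, and 0.0775 with the trend removed. Nid1, a basement membrane protein, lay between SD and untreated MASLD, with 5.83, 4.34 and 4.65 CPM, 7.78, 6.25 and 9.93 CPM and 25.6, 37.2 and 22.6 CPM in SD, 0.1x and MASLD, and its adjusted p against SD (0.0352) was 0.132 without SD sample 4, 0.0967 without SD sample 5, 0.067 without 0.1x sample 1 and 0.143 without 0.1x sample 4. Apol9b, an interferon-induced apolipoprotein L with a near-identical copy, also lay between, in the same order of groups, with 111, 90.2 and 109 CPM, 74.9, 53.4 and 69.8 CPM and 25.8, 18 and 32.4 CPM, and its adjusted p against SD (0.0183) was 0.0518 without SD sample 3, 0.0546 without SD sample 5 and 0.0719 without 0.1x sample 3. Onecut1, which encodes HNF6, a factor of hepatocytes and bile ducts, was outside these 12 and was followed whatever its result. It had 2.899, 8.55 and 9.68 CPM in SD, 8.12, 7.57 and 9.405 CPM in untreated MASLD and 1.05, 1.88 and 1.704 CPM at 0.1x (−2.19 ± 0.44 from SD, adjusted p = 0.00484, and −2.43 ± 0.44 from untreated MASLD, adjusted p = 0.00955). SD sample 3 was low for its group, and still above every treated sample.

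**Figure D5:**
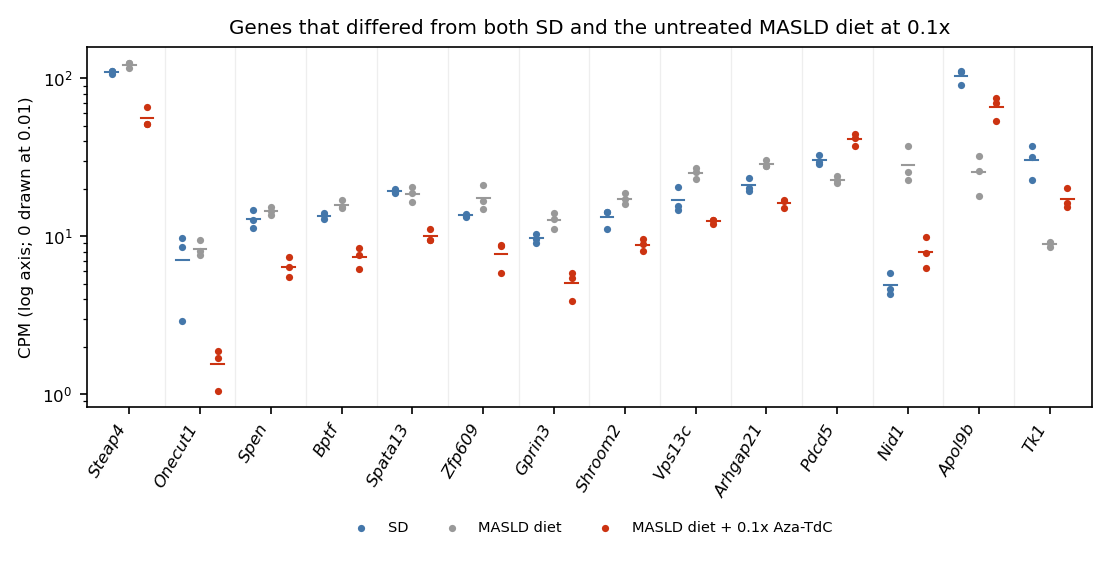
CPM on a log axis for the 12 genes described above, Onecut1 and Tk1, with 1 point per sample and a bar at the mean of 3, for SD (blue), the untreated MASLD diet (grey) and 0.1x Aza-TdC (red). From Steap4 to Arhgap21 the red points are below the blue and grey ones, Pdcd5 is above both, and Nid1, Apol9b and Tk1 lie between.

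DNA methylation acts at CG sites, which many promoters hold in dense clusters, and methylation itself was not measured here. The 250 bases before the start are given 5′ to 3′ for 2 genes above SD at 0.1x and for 2 below both untreated groups. They come from RefSeq on GRCm38.p6, the assembly of mm10, with each CG, the site of methylation, in capitals. Their positions are chr6:113435761-113436010 on the minus strand for Cidec, chr7:45615491-45615740 on the minus strand for Fgf21, chr9:74861671-74861920 on the plus strand for Onecut1 and chr4:141538598-141538847 on the minus strand for Spen.
Cidec: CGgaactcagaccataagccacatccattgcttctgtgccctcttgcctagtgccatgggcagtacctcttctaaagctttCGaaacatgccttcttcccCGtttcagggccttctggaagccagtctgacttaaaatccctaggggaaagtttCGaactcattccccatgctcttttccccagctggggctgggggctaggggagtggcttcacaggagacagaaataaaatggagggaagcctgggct
Fgf21: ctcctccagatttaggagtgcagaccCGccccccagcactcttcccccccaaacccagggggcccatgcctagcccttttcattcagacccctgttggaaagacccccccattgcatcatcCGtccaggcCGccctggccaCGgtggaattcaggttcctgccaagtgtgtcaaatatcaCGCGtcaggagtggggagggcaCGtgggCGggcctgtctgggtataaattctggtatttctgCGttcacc
Onecut1: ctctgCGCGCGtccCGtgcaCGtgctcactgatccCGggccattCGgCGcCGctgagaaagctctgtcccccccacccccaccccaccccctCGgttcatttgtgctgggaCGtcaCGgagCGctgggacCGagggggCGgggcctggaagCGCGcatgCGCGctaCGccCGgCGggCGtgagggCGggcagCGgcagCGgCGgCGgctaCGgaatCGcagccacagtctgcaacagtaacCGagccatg
Spen: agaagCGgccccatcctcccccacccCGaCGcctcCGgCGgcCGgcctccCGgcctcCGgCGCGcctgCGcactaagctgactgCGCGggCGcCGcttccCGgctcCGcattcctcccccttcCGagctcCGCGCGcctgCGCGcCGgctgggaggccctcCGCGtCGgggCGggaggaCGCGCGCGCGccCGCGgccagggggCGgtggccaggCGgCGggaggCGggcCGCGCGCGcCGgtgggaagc
The windows held 4 CG in Cidec and 9 in Fgf21 against 31 in Onecut1 and 44 in Spen, where the median over 32851 promoter windows of the same length was 6. At least as many CG as in Spen were found in 0.54% of windows, and as in Cidec in 62.2%. These 4 genes were chosen after their values were seen and are a description. The sequence table covered 74.9% of the tested genes, too few for a comparison of promoters over all genes that changed, so such a comparison would be void.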

How the data were processed

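Livers of the 12 samples were sequenced as stranded polyadenylated RNA, per the labels' protocols. Reads were aligned with STAR 2.7.3a to mm10, per the submitters' processing notes. With the counting tool, its strand setting and its annotation not given in the sources used here, overlapping and antisense genes cannot be separated. The authors deposited whole-number counts per gene for 55471 gene IDs, of which 55230 matched GENCODE release M21 for symbols and positions (the rest held 0.00328% of counts), and 0 columns lay outside the samples.

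From these counts edgeR 4.0.16 in R 4.3.3 filtered genes with filterByExpr (13866 of the 22984 with any count), scaled libraries by TMM, and fitted all 12 libraries with 1 coefficient per group. Two-sided quasi-likelihood F tests gave every adjusted p, and the SE is the absolute log2 fold change over the square root of F. Ratios against near-empty groups use a floor of 3 counts or a 95% exact interval, which cover counting error only. The fit was tested on simulated counts. Alternatives were DESeq2 1.42.0, other factors and filters, a replicate block, a GC and length trend removed per library with mgcv 1.9.3, and leaving out each library. Named genes were the 12 largest rises and falls with separated samples and at least 1 CPM, up to 3 per list and direction, 12 that also differed from untreated MASLD, and a set followed whatever its result. Not every gene the rule took is printed, and some results are not reported here. The members and lists were chosen with earlier results of these data known.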

Additional observations from a re-analysis of the deposited data

How the results depend on the processing

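The count of genes that differed between 0.1x and SD (2870) was 2873 with RLE factors, 2831 with upper-quartile factors (1559 higher, 1272 lower), 3203 with DESeq2, 3067 with no filter and 2636 with a filter at a mean of 1 CPM. It moved to 1699 in a fit of the 6 libraries alone, 1367 at an adjusted p under 0.01 and 953 with at least a 2-fold change. Removing the trend with GC content and length gave 3230 (1240 higher, 1990 lower). Leaving out each library of the comparison gave 1779 to 2610.

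Replicate numbers 3 and 4 are shared by the SD and 0.1x samples, and the labels do not say that a number marks a shared animal or day. Deviations from the group means correlated at −0.21 for number 3 and 0.01 for number 4 (Pearson, across genes). Pairs with different numbers gave −0.14 to 0.22. So few shared numbers cannot decide whether the numbers pair the samples. A replicate block gave 1410 genes in the fit of 12 libraries, 1051 in the fit of 6 libraries and 1750 with the trend removed. Under the block in 6 libraries, Lcn2 changed sign, from −0.01 to 0.95 on the log2 scale (adjusted p = 0.0392), and the cause was not tested.

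The count for MASLD against SD (4088) ran from 2674 to 3844 with each library left out. The count for 0.1x against MASLD (1874) was 140 with the replicate block and 544 with the trend removed, and ran from 516 to 1637 with each library left out, so genes named against untreated MASLD rest on fewer stable calls than those against SD.

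Of 220 named genes, 218 kept direction and side of the threshold with DESeq2, 219 with RLE factors, 211 with the trend removed and 188 to 202 with 1 library left out. At 30213048 counts in the smallest library, 0.1 CPM is about 3 counts, so folds of genes at such levels in SD rest on few counts.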
